A study of Homo sapiens with 4 samples.

Results

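The exons described here are cassette exons that lie under a long splice junction. In the splicing table, each event sets an examined junction beside a background junction of the same gene. Events annotated as cassette exons, with values in all 4 libraries, were taken where the longer of the 2 junctions spans 20000 bp or more in hg38. They numbered 328 of 3768 events, and they stand for 273 exon labels in 236 genes, of which 216 genes are protein coding. Each label is counted as 1 exon, although 4 positions carry 2 labels each, in RNF24, BANP, POC1B and LINC00511. In 235 events the examined junction lies inside the longer one and reports exon inclusion, and in 93 it contains the shorter one and reports skipping. No event was left unresolved. The other cassette exons, 1038 in 869 genes with 1368 events, serve as the comparison.

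RNA of A549 cells, a human lung adenocarcinoma line, was sequenced in 2 libraries labelled RBM10 wild type and 2 labelled RBM10 knockdown. The knockdown cells were transduced with lentivirus carrying 1 shRNA against RBM10 and selected with puromycin for 10 to 14 days, and for wild type the labels leave unsaid whether a control construct or puromycin was used. An effect of lower RBM10 and one of transduction or selection therefore cannot be told apart. All 4 libraries share the medium, poly-A selection, a stranded kit, paired reads of 100 bp and a batch. Nothing in the labels says that replicates are separate cultures, so every p-value rests on the spread among these 4 libraries alone, and that spread may be technical. The comparison asks which exons are used differently in A549 cells with less RBM10.

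A cassette exon is an exon that the spliceosome either joins to both neighbours or leaves out, in which case the neighbours are joined across the whole interval. Exons flanked by long introns depend on recognition across the exon itself, because the splice sites of a long intron are too far apart to be paired directly. RBM10 is an RNA-binding protein that associates with the spliceosome and is known mainly for promoting the skipping of cassette exons, and it is often mutated in lung adenocarcinoma.

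In RPKM, which set reads against gene length and sequencing depth, RBM10 mRNA was at 35.5 and 40.8 in wild type against 11.6 and 10.9 in knockdown, in the direction of the labels. The epithelial keratins KRT7, KRT8 and KRT18 were at 325 RPKM or more in every library. EPCAM was at 1.51 to 4.03 RPKM and CDH1 at 2.78 RPKM or more. Of the alveolar type II markers, NAPSA was at 0.340 and 0.463 RPKM in wild type against 0.736 and 0.628 in knockdown. SFTPA1, SFTPB, SFTPC and NKX2-1, like the leukocyte marker PTPRC, were not analysed here. The endothelial marker PECAM1 stayed below 0.1 RPKM. All 3 fibroblast markers were higher in knockdown, COL1A1 at 3.72 and 3.58 RPKM against 18.8 and 18.2, COL3A1 at 1.52 and 1.71 against 15.9 and 18.5, and PDGFRB at 0.01 in both wild-type libraries against 0.0595 and 0.0736. The part of these marker differences in the exon results was not tested.

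The sequences below show what the exons with the largest differences look like. They are the 6 with the largest higher and the 6 with the largest lower inclusion in knockdown among internal, fully coding exons of at most 300 nt under an annotated intron, with no overlap between the groups. STAU2 is left out, although its 114-nt exon, at -25.5 points, meets these terms and would stand among the 6. The near-identical copies of the CNTNAP3 family are left out too, while ANXA8, which has the copy ANXA8L1, is kept. The exons were chosen after their values were seen. Sequences come from GENCODE v29 transcripts (hg38) and are written 5′ to 3′ on the strand of the gene, with the first 3 and last 3 bases of the exon, next to the splice sites, in capitals. In the exons with higher inclusion they read as follows.
DTNB exon at chr2:25419515-25419535, minus strand, 21 nt: GAGgaagagcaaaagcagGCA
ANXA8 exon at chr10:47479798-47479888, minus strand, 91 nt: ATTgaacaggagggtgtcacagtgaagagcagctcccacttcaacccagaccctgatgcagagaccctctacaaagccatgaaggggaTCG
PHC3 exon at chr3:170149086-170149244, minus strand, 159 nt: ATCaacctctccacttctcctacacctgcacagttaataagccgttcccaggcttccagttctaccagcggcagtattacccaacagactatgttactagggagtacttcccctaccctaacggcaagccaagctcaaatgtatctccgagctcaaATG
BTRC exon at chr10:101430345-101430452, plus strand, 108 nt: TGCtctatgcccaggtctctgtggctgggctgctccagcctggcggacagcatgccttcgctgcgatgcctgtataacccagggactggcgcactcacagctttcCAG
DCAF6 exon at chr1:168022988-168023047, plus strand, 60 nt: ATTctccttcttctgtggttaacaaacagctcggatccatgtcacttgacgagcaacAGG
DENND1A exon at chr9:123769514-123769563, minus strand, 50 nt: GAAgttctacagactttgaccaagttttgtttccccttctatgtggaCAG

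In the exons with lower inclusion they read as follows.
PCNX1 exon at chr14:70988567-70988699, plus strand, 133 nt: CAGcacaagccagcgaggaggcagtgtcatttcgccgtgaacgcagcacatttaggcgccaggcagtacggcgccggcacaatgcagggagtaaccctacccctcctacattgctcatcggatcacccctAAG
SLC25A26 exon at chr3:66236544-66236700, plus strand, 157 nt: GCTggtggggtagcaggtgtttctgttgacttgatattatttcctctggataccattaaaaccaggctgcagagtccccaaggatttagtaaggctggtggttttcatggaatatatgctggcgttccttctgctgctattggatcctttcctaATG
BANP exon at chr16:88004295-88004411, plus strand, 117 nt: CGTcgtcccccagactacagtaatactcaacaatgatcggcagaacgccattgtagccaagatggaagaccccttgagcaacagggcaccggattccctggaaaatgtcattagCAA
C9orf85 exon at chr9:71947006-71947112, plus strand, 107 nt: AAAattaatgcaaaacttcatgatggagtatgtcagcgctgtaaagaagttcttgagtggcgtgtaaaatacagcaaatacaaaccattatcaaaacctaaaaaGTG
POC1B exon at chr12:89459638-89459718, minus strand, 81 nt: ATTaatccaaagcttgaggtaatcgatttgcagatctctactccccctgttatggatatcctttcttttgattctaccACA
GALNT13 exon at chr2:154408984-154409082, plus strand, 99 nt: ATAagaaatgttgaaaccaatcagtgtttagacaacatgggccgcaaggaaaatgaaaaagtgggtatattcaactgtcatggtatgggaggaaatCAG
Of these 12 exons, DTNB has the shortest, with 21 nt, and PHC3 the longest, with 159 nt. Their GC content ran from 33.6% in C9orf85 to 62.0% in BTRC. The BTRC exon has 76116 bp of intron upstream and 31528 bp downstream, and the C9orf85 exon 35169 bp and 24392 bp.

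The label of a cassette exon inside a long intron held for most of these exons. Of the 273, GENCODE v29 gave a position for 225, at 221 distinct positions, and 199 of those are internal exons of a transcript, 16 are first exons and 10 are last exons. For 44 exons the examined and background junctions share no end, so that the label names a junction within the longer one, often between 2 listed exons. CTNND1, RAB4A, ITGB3BP and IGF2BP3, named below, are among these. The longer junction is an annotated intron in 299 of 328 events and is not in 29. It spanned 20084 to 181032 bp, with a median of 37630 bp over exons, against 5034 bp in the other cassette exons. Just inside the bound lay FEZ2, of the fasciculation and elongation family (20084 bp, inclusion 13.5 points higher in knockdown), and DCUN1D4, which promotes cullin neddylation (20170 bp, 12.8 points higher at its inclusion junction). The skipping junction of DCUN1D4 was at 63.4% and 78.6% in wild type and at 78.6% and 61.0% in knockdown, with overlap of the groups. Just outside the bound lay FBXL4, a mitochondrial F-box protein (19984 bp, inclusion lower by a difference of -12.9 points), and DRAM1, a lysosomal membrane protein (19943 bp, -2.60 points). The FBXL4 difference turned to 2.69 points without wild-type replicate 1, and that of DRAM1 to 9.99 points without wild-type replicate 2 and to 5.66 points without knockdown replicate 1.

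The 199 internal exons had a median length of 104 nt, against 105 nt in the other cassette exons, and ran from 12 to 2425 nt. Their median GC content was 48.7%, against 51.3%. The last base was G in 165 of them (82.9%), against 78.3% in the others. Fully coding exons numbered 85 (42.7%), against 62.7% in the others, and exons with no coding base 78 (39.2%), against 24.6%. Of the 85 fully coding exons, 49 have a length that is a multiple of 3 (57.6%), against 66.4% in the others. The intron upstream had a median of 19777 bp and the one downstream 17498 bp, and the upstream one was the longer in 110 of 199. Both introns were 5000 bp or longer in 135 exons (67.8%), against 4.99% in the others. These shares describe the listed exons, and the differences from the other cassette exons were not tested.

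Exons under long junctions were mostly included less in knockdown, while the other cassette exons were mostly included more. PSI is the share of reads, in a set that can hold further junctions, that use the examined junction. With the sign of skipping junctions turned, the median inclusion difference (knockdown minus wild type) over the 273 exons was -6.67 points of PSI, against 6.91 points in the other 1038 and 3.55 points over all 1311 cassette exons. With 1 library left out, the median of the long-junction exons was furthest from this value without wild-type replicate 2, at -10.7 points. The full range is given below. The knockdown values of 102 exons lay below both wild-type values, by 10 points or more on average, and those of 50 lay above. Over all cassette exons these shares were 23.6% lower and 33.4% higher, and in the 1038 others 208 were lower and 388 higher. Thus 67.1% of the non-overlapping long-junction exons were lower, against 34.9% in the others. By sign alone, 173 of the 273 were lower and 100 higher. With 1 label for each position, an alternative chosen after seeing the data, 99 of 269 were lower and 50 higher, with a median of -6.21 points. This merges only labels with a known position. Further overlap remains, since the 328 events lie under 245 distinct longer junctions and 28 genes have more than 1 label. Exons of a library share their source and are no replicates, and the difference between the 2 sets of exons was not tested.

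Both knockdown libraries lay below both wild-type libraries. Set against each exon's mean over the 4 libraries, the median inclusion of the long-junction exons was 5.23 and 1.24 points in wild-type replicates 1 and 2, and -4.99 and -5.19 points in knockdown replicates 1 and 2. In the other cassette exons it was -4.13 and -4.56 points in wild type, and 3.16 and 3.01 points in knockdown. For long-junction exons wild-type replicate 2 lies nearer to 0 than replicate 1, and both stand above the knockdown libraries. The median absolute difference between replicates, as a PSI fraction, was 0.115 in wild type and 0.0968 in knockdown, and that between the group means was 0.140. The event of each exon was chosen by its group difference, which favours the last value. It also sets means beside single libraries, so these values do not measure change against noise.

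**Figure D1:**
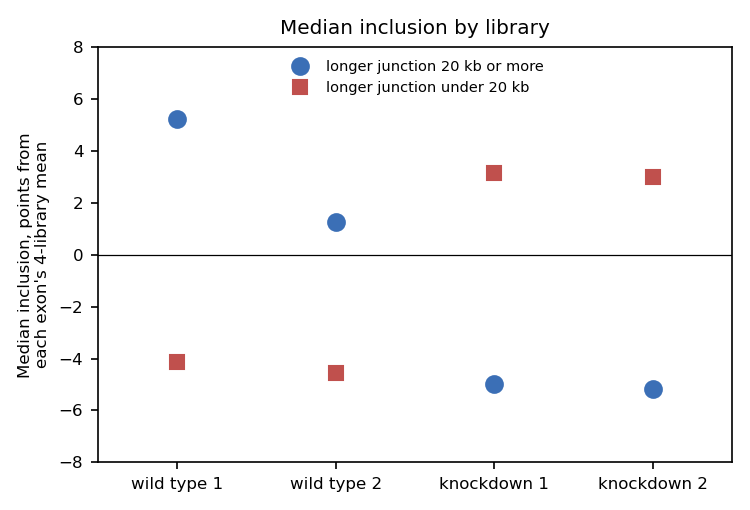
Median inclusion in each of the 4 libraries, in points of PSI from each exon's mean over the 4 libraries, for exons with a longer junction of 20000 bp or more (circles) and for the other cassette exons (squares). The circles lie at 5.23 and 1.24 points in wild type and at -4.99 and -5.19 points in knockdown, and the squares lie the other way round.

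The share of exons with lower inclusion was larger in each longer class of junction span up to 100000 bp. Among exons whose groups did not overlap, with a difference of 10 points or more, 15% were lower where the span was under 2000 bp, 33.3% from 2000 to 5000 bp, 38.5% from 5000 to 10000 bp and 54.5% from 10000 to 20000 bp. Above the bound, 63 exons were lower and 36 higher from 20000 to 50000 bp (63.6% lower), 29 were lower and 9 higher from 50000 to 100000 bp (76.3%), and 10 were lower and 5 higher at 100000 bp or more (66.7%). The median inclusion difference ran from 13.8 points in the shortest class to -11.6 points from 50000 to 100000 bp, and was -8.21 points in the longest class, which holds 25 exons. The median RPKM of the host gene, its mRNA level, moved along with the span, from 5.14 in the shortest class to 2.37 from 20000 to 50000 bp and 1.47 in the longest.

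**Figure D2:**
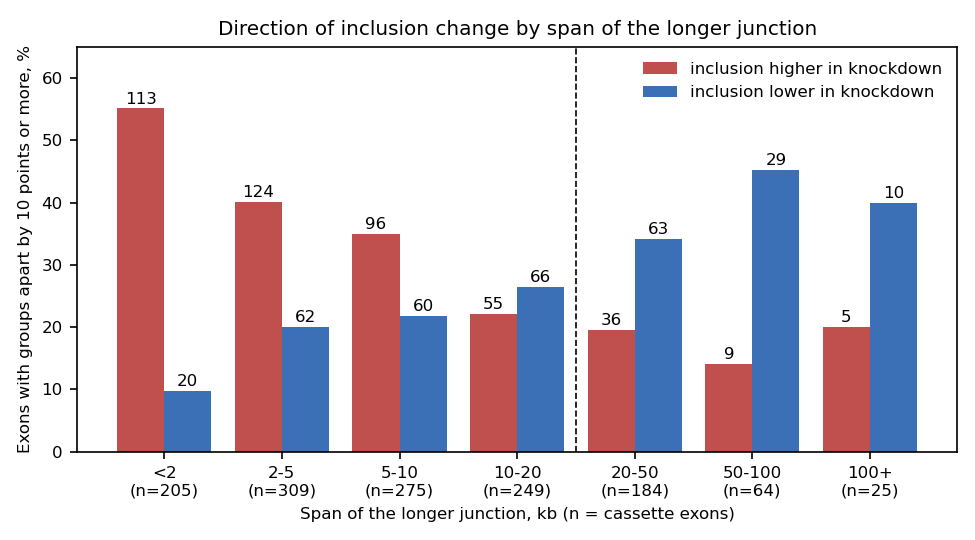
Share of cassette exons (y axis, %) whose groups did not overlap and differed by 10 points or more, by span of the longer junction (x axis, kb), with inclusion higher in knockdown in red and lower in blue. Numbers over the bars count exons, the dashed line marks 20000 bp, and the blue bars are the taller ones in every class right of it.

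Long-junction exons had the larger share of lower inclusion in each class of host gene level. Among long-junction exons in genes below 1.5 RPKM, 34 were lower and 14 higher (70.8% lower), against 43.7% lower in the other cassette exons of such genes. From 1.5 to 5 RPKM 53 were lower and 22 higher (70.7%), against 37.5%. At 5 RPKM or more 15 were lower and 14 higher (51.7%), against 28.5%. Where the longer junction leaves a first exon, 82 were lower and 32 higher (71.9%), against 41.9% in the others, and where it leaves none, 20 were lower and 18 higher (52.6%), against 29.1%. Lower exons thus outnumbered higher ones by little in well-expressed genes and away from first exons.

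Fully coding internal exons were lower in 29 cases and higher in 16 (64.4% lower), and exons with no coding base in 28 and 17 (62.2%). Coding exons whose length is no multiple of 3, which shift the reading frame when skipped, were lower in 16 cases and higher in 5 (76.2%), while those with a multiple of 3 were lower in 13 and higher in 11 (54.2%). The same order was seen in the other cassette exons, at 42.2% and 30.8%. Exons with the longer intron upstream were lower in 40 cases and higher in 26, and those with the longer intron downstream in 38 and 20. Exons with both introns of 5000 bp or more were lower in 53 cases and higher in 25. Events sharing no junction end were lower in 22 cases and higher in 4, and exons of RNA genes and pseudogenes in 14 and 3. Inclusion junctions gave 80 lower and 34 higher, and skipping junctions, with their sign turned, 22 lower and 16 higher. None of these classes was tested against another.

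No event passed limma's test on PSI fractions with Benjamini-Hochberg adjustment over all 3744 events with 4 values, the call being an adjusted p below 0.05 with PSI apart by at least 0.1 (smallest adjusted p = 0.259). Over all events 0.107% passed. Without adjustment, 49 of 328 events had a limma p under 0.05 (14.9%), 38 with lower and 11 with higher inclusion, against 18.4% over all events. In the other cassette events 291 of 1368 had such a p (21.3%), 222 with higher and 69 with lower inclusion. The share of such events was thus no higher under long junctions than over the whole table. Named exons are therefore given by their values in each library, and each lower or higher level below is a description of 4 libraries. The table lists only events with a spread of 0.15 or more between libraries, and it holds no read counts, so the depth behind each PSI is unknown.

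Among exons with lower inclusion, that of PCNX1, a pecanex family membrane protein, was printed above with 133 nt. Its inclusion junction had a PSI of 69.2% and 76.5% in wild type and of 38.7% and 42.4% in knockdown, a difference of -32.3 points (SE 8.61; limma, unadjusted p = 0.00845, Benjamini-Hochberg adjusted p = 0.259). Its skipping junction was at 12.1% and 9.52% in wild type and at 25.7% and 29.9% in knockdown. The groups did not overlap in either junction, and both point to less inclusion. In RAP1A, a small GTPase of cell adhesion, a 94-nt noncoding exon lies 7535 bp into a 71400 bp interval. Its inclusion junction was at 65.2% and 77.8% in wild type and at 45.7% and 37.0% in knockdown, and its skipping junction at 30.8% and 19.7% against 50% and 61.7%. TFPI encodes the tissue factor pathway inhibitor, which limits the start of blood clotting. Its 31-nt noncoding exon had an inclusion PSI of 41.5% and 50.5% in wild type and of 14.6% and 16.5% in knockdown, and a skipping PSI of 32.6% and 36.4% against 65.1% and 58.3%. In all 3 genes each knockdown library lay outside the wild-type range in both junctions.

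The remaining exons with the largest lower inclusion lay in genes of several kinds. In IQSEC2, PXYLP1, PSTK and IKBIP the examined and background junctions share no end. Their events thus set a junction within the longer one beside it, and no exon position was found. The same holds for a further PCNX1 label, with a difference of -29.1 points. In IQSEC2, an exchange factor for ARF GTPases, an internal junction had a PSI of 64.7% and 65.5% in wild type and of 16.3% and 33.9% in knockdown (difference -40.0 points, SE 9.66; limma, unadjusted p = 0.00531, adjusted p = 0.259), the smallest p of all long-junction events. In PXYLP1, a phosphatase of glycosaminoglycan synthesis, the skipping junction was at 19.6% and 20% in wild type and at 50.8% and 59.6% in knockdown. PSTK makes phosphoseryl-tRNA for selenocysteine, and its junction was at 73.3% and 80.6% in wild type and at 60.7% and 15.4% in knockdown, so that the 2 knockdown libraries differ more from each other than the nearer one does from wild type. IKBIP was at 44.9% and 46.3% in wild type and at 18.8% and 17.3% in knockdown, with replicates close to each other in both groups. RHBDD1, a rhomboid protease, was at 53.2% and 41.7% against 17.4% and 22.6%, while its skipping junction, at 20.6% and 34.5% against 56% and 31.8%, had groups that overlap. ZNF33B, a zinc finger protein, had a skipping PSI of 45.2% and 32.4% in wild type and of 71.0% and 61.3% in knockdown.

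Noncoding RNA genes and a transcribed pseudogene, AC244669.1, stood among the hosts of the exons with the largest lower inclusion. TMEM161B-AS1 was at 96.7% and 77.1% in wild type and at 62.5% and 54.5% in knockdown, under a junction of 165688 bp. SUCLG2-AS1 was at 55.8% and 66.7% against 39.3% and 28.1%, and the skipping junction of LINC01278 was at 24.5% and 35.1% against 56.5% and 57.9%. In each of these 3 events the groups did not overlap. Of the 2 inclusion events of LINC01278, one was at 38.5% and 39.2% in wild type and at 21.7% and 18.4% in knockdown, and the other, whose groups overlap, at 35.8% and 17.5% against 20% and 19.4%. AC105999.2 was at 75% and 41.7% in wild type and at 34.5% and 21.3% in knockdown, and its RNA rose from a mean of 1.5 to one of 6.33 RPKM (log2 change of RPKM + 1 of 1.55; limma, adjusted p = 2.5e-05). AC244669.1 had the largest difference of all, -44.9 points (SE 13.7), with a skipping PSI of 47.1% and 8% in wild type and of 71.4% and 73.3% in knockdown. Its wild-type libraries differ by almost as much as the groups do, and its level of 0.218 RPKM in wild type is low.

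The other 5 exons printed above with lower inclusion were in wild type and knockdown as follows. SLC25A26, the mitochondrial carrier of S-adenosylmethionine, was at 73.8% and 65.8% in wild type and at 36.0% and 50% in knockdown, and in a further inclusion event at 60.7% and 31.7% against 33.7% and 26.5%, with overlap of the groups. BANP, a nuclear DNA-binding protein, was at 75.6% and 67.9% against 44.2% and 46.9%. The other label of the same BANP exon was at 83.9% and 63.8% in wild type and at 47.3% and 56.7% in knockdown. The skipping junction under that label was at 10.8% and 18.1% against 34.6% and 25.3%. C9orf85 was at 67.5% and 44.4% against 25% and 35.3%. At the events given first, the libraries of BANP were the closest within each group, and those of C9orf85 came within 10 points of overlap. The wild-type libraries of BANP lay further apart under its other label. POC1B, a centriole protein, was at 87.5% and 61.8% in wild type and at 58.9% and 43.4% in knockdown, with a narrow gap between the groups. GALNT13, which starts mucin-type O-glycosylation, was at 95.1% and 83.3% against 57.1% and 75.4%.

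Among exons with higher inclusion, the largest difference was in TMEM116, which encodes a membrane protein. The skipping junction of its 165-nt exon was at 73.7% and 66.7% in wild type and at 45.5% and 9.68% in knockdown, a difference of 42.6 points towards inclusion (SE 13.2; limma, unadjusted p = 0.0162, adjusted p = 0.259). The groups did not overlap, although the knockdown libraries lay far apart. In PRKCE, protein kinase C epsilon, the inclusion junction was at 15% and 5% in wild type and at 54.5% and 40.0% in knockdown, and the skipping junction at 60.0% and 50% against 36.4% and 23.3%. GENCODE v29 lists this 203-nt exon as a first exon, so the event may be read as a choice of start as well as of inclusion. ANKRD28, a subunit of protein phosphatase 6, is listed as a first exon too, at 21.1% and 13.3% in wild type and at 37.0% and 38.3% in knockdown. Its skipping junction, at 36.7% and 62.5% in wild type and at 44.4% and 42.9% in knockdown, had groups that overlap.

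CTNND1 encodes p120-catenin, which holds cadherins at the cell surface and is spliced differently in epithelial and mesenchymal cells. Its junction between 2 listed exons, under an interval of 31964 bp, was at 11.6% and 11.4% in wild type and at 37.3% and 32.6% in knockdown (difference 23.5 points, SE 8.41; limma, unadjusted p = 0.0295, adjusted p = 0.259). The replicates of each group lay close together. PLCB4, a phospholipase C of G protein signalling, was at 40.6% and 20% against 63.0% and 53.1% under a junction of 148487 bp. TBL1XR1, a subunit of the NCoR corepressor, was at 54.3% and 43.3% against 84.6% and 57.9%, with groups only just apart. METTL8, a tRNA methyltransferase, was at 6.54% and 10.8% against 26.5% and 32.9%. ACSL3, which activates long-chain fatty acids, was at 32.8% and 38.0% against 61.4% and 52.0%. The skipping junction of ACSL3, at 41.3% and 37.0% against 19.4% and 23.7%, points to more inclusion too. MANBA, the lysosomal beta-mannosidase, was at 42.6% and 52.0% in wild type and at 77.8% and 61.5% in knockdown. A 42-nt noncoding exon of AAMDC had an inclusion PSI of 19.1% and 22.4% in wild type and of 48.7% and 33.6% in knockdown. The skipping PSI of the AAMDC exon was 67.6% and 63.5% against 44.4% and 49.7%. In all of these the groups did not overlap.

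The 6 exons printed above with higher inclusion were fully coding. DTNB, a dystrobrevin of the dystrophin complex, had a skipping PSI of 90.2% and 98.3% in wild type and of 63.8% and 77.9% in knockdown, so that its 21-nt exon was almost always skipped in wild type. PHC3, a subunit of Polycomb repressive complex 1, was at 63.3% and 63.0% against 87.2% and 83.6%, with replicates near each other. BTRC, the F-box protein that brings beta-catenin to the ubiquitin ligase SCF, was at 36.4% and 46.5% against 59.5% and 66.0%. A further inclusion event of the BTRC exon, at 28.8% and 44.4% in wild type and at 41.4% and 20% in knockdown, had overlapping groups and a difference of -5.96 points, in the other direction. DCAF6, a substrate receptor of a cullin ligase, had a skipping PSI of 56.4% and 61.6% in wild type and of 38.3% and 39.1% in knockdown. An inclusion junction of DCAF6 was at 20.5% and 9.57% against 28.7% and 40%, and another at 16.7% and 7.43% against 35.5% and 22.1%. DENND1A, an exchange factor for RAB35, was at 62.2% and 76.7% against 92.6% and 86.5%. ANXA8, a calcium-dependent membrane-binding annexin, was at 75% and 58.9% against 89.0% and 91.1%, and its mRNA rose from a mean of 6.64 to one of 21.8 RPKM (log2 change 1.58; limma, adjusted p = 1.15e-05).

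Some of these genes have near-identical copies between which reads can be divided, and their values are uncertain. ANXA8 has the copy ANXA8L1. CNTNAP3P2, a pseudogene of the CNTNAP3 family, was at 38.5% and 36.2% in wild type and at 63.2% and 63.6% in knockdown, and TRIM16, a tripartite motif protein with a related copy, at 53.1% and 60.6% against 90.0% and 64.7%. CNTNAP3P2 mRNA fell by 0.60 on the log2 scale of RPKM + 1 (adjusted p = 0.00636; limma), and its longer junction is no annotated intron. AC244669.1 and SRGAP2C belong to duplicated stretches of chromosome 1.

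**Figure D3:**
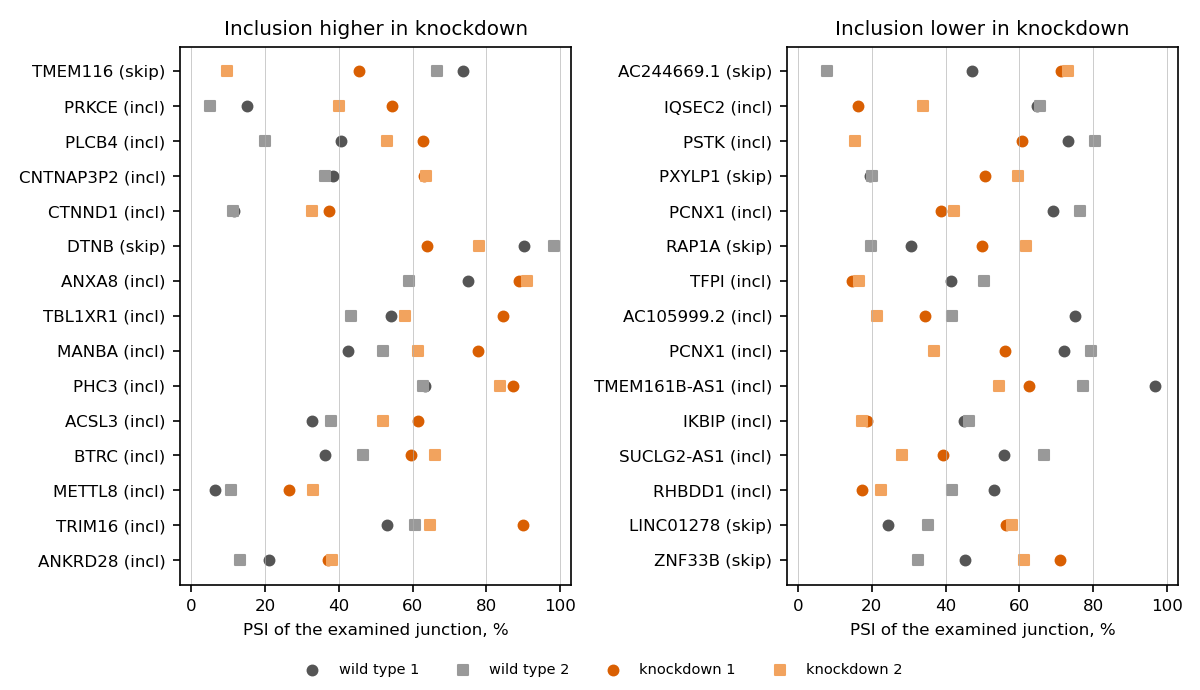
PSI of the examined junction (x axis, %) in each of the 4 libraries for the 15 exons with the largest higher (left) and the 15 with the largest lower inclusion in knockdown (right), among those without overlap of the groups. Grey points are wild type and orange points knockdown, and the genes marked skip show a skipping junction, where a lower PSI stands for more inclusion.

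Inclusion and skipping junctions of an exon mostly gave matching directions. For 35 exons the table held events of both kinds, and in 34 of them all events pointed the same way, P2RY6, a receptor for nucleotides, being the exception. The 2 junctions of a pair can stand in each other's denominator, so a match is partly built in. In 15 of the 35 exons all events had groups that did not overlap with a difference of 10 points or more, 7 with higher and 8 with lower inclusion. Among the exons seen from both sides, higher and lower ones were thus nearly equal in number. The median inclusion PSI in wild type, over the 203 exons described by an inclusion junction, was 56.4% and 50%, and in knockdown it was 50% and 45.7%.

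**Figure D4:**
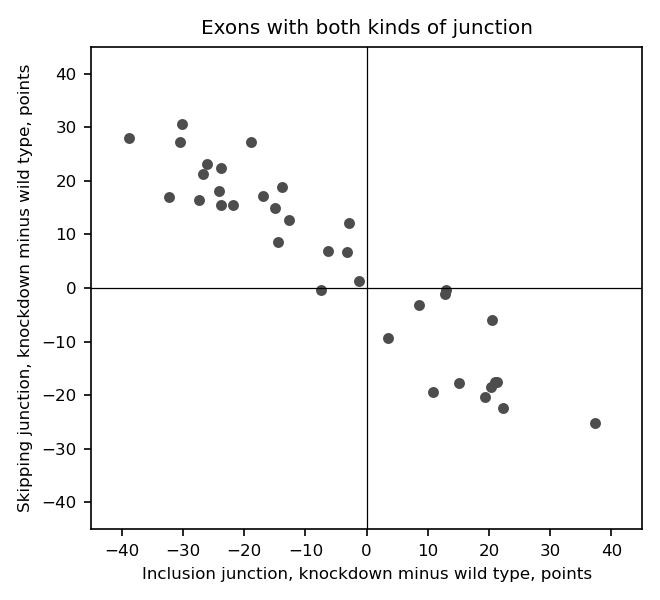
Difference between knockdown and wild type, in points of PSI, of the inclusion junction (x axis) and of the skipping junction (y axis) for the exons with both kinds of event. Each point is 1 exon, and the points lie in the upper left and lower right of the plot, apart from 1 exon close to 0 on the y axis.

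Of the listed RBM10 target genes, NUMB alone has an exon under a long junction, and it is not the exon known for regulation by RBM10. The long-junction exon of NUMB has 33 nt, lies at chr14:73316390-73316422 in the part that encodes the phosphotyrosine-binding domain, and has 19104 bp of intron downstream. Its inclusion PSI was 50% and 26.3% in wild type and 32.7% and 31.4% in knockdown, so that both knockdown values lay between the wild-type ones (difference -6.06 points, SE 10.6; limma, unadjusted p = 0.589, adjusted p = 0.761). Without wild-type replicate 1 the difference was 5.81 points in the other direction. The 144-nt exon of NUMB, which RBM10 is known to regulate, lies under a junction of 5066 bp. Its skipping PSI was 52.1% and 38.1% in wild type and 29.3% and 35.5% in knockdown. That is inclusion higher by 12.7 points, with groups only just apart (SE 9.35; limma, unadjusted p = 0.222, adjusted p = 0.42). The target exons of TNRC6A, which takes part in microRNA silencing, and of DNMT3B, a DNA methyltransferase, lie under junctions of 2727 and 5292 bp. Inclusion of each was higher in knockdown without overlap, TNRC6A by 32.6 points and DNMT3B by 32.4 points at the event with the larger difference. These 3 exons outside the long-junction set have the direction of the other cassette exons.

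Lists of host genes were drawn up by symbol and are not complete, so that a count covers the listed genes and not a whole class. PHC3 and TBL1XR1 are not on the chromatin list, IQSEC2 is not on that of GTPase regulators, DCAF6 not on that of the ubiquitin pathway, and CHEK1, SMG1 and CDC42BPA not on that of kinases. An exon is counted as higher or lower here only where the groups did not overlap and differed by 10 points or more. By this measure 50 of all 273 long-junction exons were higher and 102 lower. In the listed RNA-binding and processing genes, 0 of 12 exons were higher and 5 lower, with a median of -8.44 points. The median over all long-junction exons was -6.67 points. Among the other cassette exons of listed genes, 16 of 24 were higher and 2 lower. Of the 5 lower long-junction exons, 3 are overlapping labels of IGF2BP3, an mRNA-binding protein of fetal and tumour cells. The longer junction of IGF2BP3, of 126090 bp, is no annotated intron. The IGF2BP3 label with the largest difference was at 88.2% and 98.2% in wild type and at 74.0% and 71.6% in knockdown. STAU2, a double-stranded RNA-binding protein of mRNA transport, was at 96.8% and 70.7% against 56.6% and 60.0%. The fifth is SRGAP2C, a GTPase activator that entered by its symbol, as PCBP1-AS1 did.

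In the listed ubiquitin pathway genes 2 of 13 exons were higher and 7 lower, with a median of -13.6 points. Among the other cassette exons of listed genes, 13 of 34 were higher and 7 lower. The higher long-junction exons were in BTRC and its close relative FBXW11, an F-box protein too. FBXW11 had a skipping PSI of 46.6% and 32.3% in wild type and of 30% and 25.1% in knockdown. RNF24, a RING finger protein, gave 2 labels of the same 69-nt exon, so that this exon is counted 2 times among the 7 lower long-junction exons. The RNF24 label with the larger difference was at 52.5% and 50% in wild type and at 22.2% and 32.1% in knockdown. UBE3A, the ligase of Angelman syndrome, gave 2 overlapping labels too, the larger at 52.9% and 48.1% against 29.1% and 28.0%. USP47, a deubiquitinase, was at 74.6% and 81.5% against 62.8% and 51.6%. NEDD4L, a ligase that limits sodium channels, had a skipping PSI of 65.2% and 57.8% in wild type and of 81.2% and 85.7% in knockdown, at an exon that GENCODE v29 lists as a first exon.

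In membrane traffic, a list that holds the TMEM genes by their symbol, 2 of 12 exons were higher and 7 lower, with a median of -12.9 points. Among the other cassette exons of listed genes, 16 of 42 were higher and 11 lower. Of the 6 long-junction exons in TMEM-named genes 1 was higher and 3 lower, and of the other 6 long-junction exons 1 was higher and 4 lower. One of the lower TMEM-named genes is TMEM161B-AS1, an antisense noncoding RNA gene. ATG7, the activating enzyme of autophagy, was at 44.3% and 54.2% in wild type and at 20.5% and 30.6% in knockdown, and ATG10, which conjugates ATG12, was at 86.8% and 84.3% against 64.8% and 65.6%. RAB4A, a GTPase of recycling endosomes, was at 86.4% and 89.7% against 69.2% and 70.4%. The replicates of ATG10 and RAB4A lay close together relative to the gap between the groups. SNAP25, a SNARE protein of vesicle fusion, went the other way, at 64.2% and 62.3% in wild type and at 81.0% and 77.9% in knockdown.

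The listed small GTPase regulators had 1 higher and 3 lower of 8 exons, with a median of -8.16 points, RAP1A, RAB4A and SRGAP2C being the lower ones and DENND1A the higher one. Of the 3 exons on the kinase list, in PRKCE, MET and MAPK8, 2 were higher and 1 lower. MET, the receptor of hepatocyte growth factor, had a skipping PSI of 82.6% and 88.9% in wild type and of 69.2% and 69.4% in knockdown, that is more inclusion of a 50-nt exon. MAPK8, the stress kinase JNK1, had an inclusion PSI of 38.0% and 26.4% against 13.6% and 22.6%, with groups only just apart. Among the kinases not on the list, CHEK1 of the DNA damage checkpoint was at 53.6% and 37.0% in wild type and at 72% and 58.3% in knockdown, without overlap, while the groups of SMG1 and CDC42BPA overlapped. In the listed chromatin and transcription genes, 2 of 15 exons were higher, 1 was lower and 12 were neither, with a median of 0.357 points. ARID1B, a subunit of the BAF remodelling complex, was at 16.7% and 15.2% in wild type and at 42.3% and 25% in knockdown, at a 42-nt coding exon under a junction of 149086 bp. Its other inclusion event, at 42.9% in both wild-type libraries and at 60.5% and 36.8% in knockdown, had groups that overlap.

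The listed cytoskeleton and adhesion genes had 2 higher and 2 lower of 6 exons. The higher ones were CTNND1 and PXN, the focal adhesion protein paxillin, with a skipping PSI of 61.5% and 67.8% in wild type and of 52.8% and 51% in knockdown. The lower ones were LIMCH1, a regulator of actomyosin, with a skipping PSI of 38.0% and 40.5% against 44.5% and 59.9%, and ITGB3BP, a centromere protein that entered by its symbol, with an inclusion PSI of 63.0% and 68.3% against 42.1% and 48.8%. Of 4 exons in listed genes known for epithelial-mesenchymal splicing, CTNND1 was higher and TCF7L2, NUMB and MBNL2 were neither. MBNL2, itself a splicing regulator, was at 54.5% and 71.4% in wild type and at 55.3% and 56.5% in knockdown, a difference of -7.10 points that turned to 1.34 points without wild-type replicate 2. No list was compared with another, and the counts of higher and lower over all cassette exons are those given above.

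Host genes of long-junction exons were called in mRNA level at shares near those of all tested genes. Of 236 host genes 181 reached a mean of 1 RPKM in at least 1 group. In limma with Benjamini-Hochberg adjustment over all 10182 tested genes, 21 rose (11.6%) and 10 fell (5.52%), against 15.3% and 7.03% of all tested genes, and this difference was not tested. With quantile normalization 14 rose and 23 fell, so the balance of higher and lower host genes depends on scaling. Without wild-type replicate 1 only 5 fell, and without knockdown replicate 1 only 6. The median log2 change was 0.05 in host genes and 0.02 in all tested genes. In bulk RNA, fewer cells of a type and less RNA per cell cannot be told apart.

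Among the host genes that rose were ANXA8, ANXA8L1, KRT8 and the receptor phosphatase PTPRS, which went from 12.6 and 13.0 to 26.7 and 28.8 RPKM. LIMCH1 rose from a mean of 6.97 to one of 14.0 RPKM (log2 change 0.91; limma, adjusted p = 0.00115). Among those that fell were PDIA5, a protein disulfide isomerase, from 17.3 and 17.3 to 11.7 and 11.3 RPKM, and TLE4, a corepressor, from 5.21 and 4.53 to 3.08 and 3.52 RPKM. Of the exons in host genes that rose or fell, 35 in all, 9 were higher in inclusion and 10 lower, and of the 175 in tested host genes that did not pass, 31 were higher and 72 lower.

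**Figure D5:**
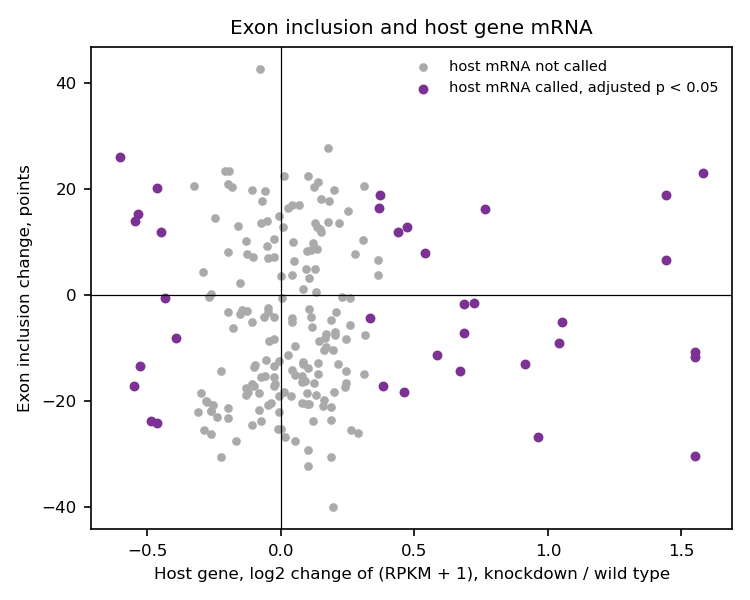
Log2 change of the host gene's RPKM + 1 (x axis, knockdown over wild type) against the inclusion difference of its exon (y axis, points of PSI), 1 point for each exon in a tested host gene. Purple points are the 35 exons in host genes past limma's adjusted test, and most points lie near 0 on the x axis, with more of them below 0 than above on the y axis.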

How the data were processed

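A549 libraries, 2 RBM10 wild type and 2 knockdown, were grouped by the genotype label. Per the file headers, the authors deposited the PSI of each junction event, a fraction between 0 and 1, listing only events with a spread of 0.15 or more. The authors also deposited gene expression in values of RPKM form, a unit inferred from the values. The submitters' processing notes name STAR 2.6.1 and hg38. What splicing caller, counter or annotation was used is not given in the sources used here. Exons, introns and coding parts came from GENCODE v29 (release 29, hg38). The depth behind each PSI is unknown.

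PSI fractions were fitted with limma 3.58.1 in R 4.3.3 over all 3744 events with 4 values, two-sided, without covariates, and RPKM as log2(RPKM + 1) with trend for genes whose mean reached 1 RPKM in either group. Benjamini-Hochberg adjustment ran over all rows, at 0.05, and PSI events also needed a difference of 0.1. The limma fits were also run on simulated data with independent normal noise around the observed means. Those data do not model read depth, so they do not show how the p-values behave on the deposited PSI. The longer junction's span is its end minus its start. Each exon label was counted once, by the event with the largest difference. The sign of skipping junctions was turned for inclusion, while printed PSI values are those deposited, and neither junction's PSI was taken as 1 minus the other.

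The exons and gene lists were chosen with earlier results of these data known. Named exons are the 15 largest higher and 15 largest lower without overlap of the groups, up to 6 exons with inclusion and skipping events, NUMB, up to 3 exons of each list and those beside the 20000 bp bound. Any further exon was named with its values known. Alternatives covered the fit, thresholds, scaling, filters, bound, junction kind, replicate block and each library left out. Replicate numbers were not used as pairs, since the labels share only a number.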

Additional observations from a re-analysis of the deposited data

How the results depend on the processing

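Lower inclusion under long junctions was more frequent than higher inclusion in every alternative run, and with 1 library left out the exons named for their size of difference, list, sequence or place at the bound kept the direction of the event given first, apart from 4: NUMB ran from -17.9 to 5.81 points, turning without wild-type replicate 1, FBXL4 from -28.4 to 2.69 points, turning without the same library, DRAM1 from -15.2 to 9.99 points, turning without wild-type replicate 2 and, at 5.66 points, without knockdown replicate 1, and MBNL2 from -15.5 to 1.34 points, turning without wild-type replicate 2. No event passed the adjusted test in any alternative but the replicate block, in which 2 did, TMEM116 and AC244669.1. The block moved the 49 events with an unadjusted p under 0.05 to 41, and the host genes called to 17 higher and 7 lower. Deviations of same-numbered libraries correlated at -0.04 for PSI and -0.44 for log2 RPKM, so libraries with the same number did not deviate together. In expression, libraries with opposite numbers tended to deviate together, and the source of this was not tested. A crossed pairing, chosen after seeing the data, gave 32 higher and 21 lower host genes. Leaving out 1 library left 16 to 22 events with an unadjusted p, since fewer libraries enter, and gave 62 to 73 exons with higher and 115 to 138 with lower inclusion, a median of -10.7 to -5.88 points, and 15 to 17 higher and 5 to 10 lower host genes. A bound of 10000 bp gave 100 events with an unadjusted p among 649, 105 exons higher and 168 lower, and a median of -3.84 points, and one of 50000 bp gave 17 among 106, 14 higher and 39 lower, and -10.3 points. A minimum difference of 0.2 left 19 higher and 51 lower exons. Restricting to internal exons under an annotated intron, an alternative chosen after seeing the data, left 38 higher and 64 lower of 186, fewer exons by construction. With no filter on low values 12 host genes were higher and 3 lower, and with quantile normalization 14 and 23; the cause was not tested. The median over all tested genes moved from 0.02 to -0.04 with quantile normalization. Further alternatives chosen after seeing the data were 1 event per exon by table order, 1 exon per host gene, 1 label per exon position, and leaving out near-identical families and pseudogenes. With 2 libraries a group and no read counts, an event's own noise cannot be separated from a change.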

Other observations

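The bound of 20000 bp leaves out some exons that also lie between long introns. Of the other cassette exons, 44 have an intron of 5000 bp or more on each side. Among these, 15 had lower and 3 had higher inclusion in knockdown, with groups that did not overlap and a difference of 10 points or more (83.3% lower), and their median inclusion difference was -9.28 points. Over all of the other cassette exons 34.9% of such exons were lower. This count was looked at after the values of the long-junction exons were known, and the difference was not tested.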
